A study of Mus musculus with 10 samples.

Results

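The 41 genes described here are the DNA replication and S-phase genes: the proteins that license, unwind, copy and repackage the genome, the enzymes that supply nucleotides for it, and cyclin E and E2F1 at the entry to S phase. They were taken by symbol from a list and found among 55357 gene identifiers in each of 2 tables of gene counts, 1 for hearts and 1 for macrophages, all by their Ensembl identifier. Levels are in CPM, counts per M counts of a scaled library (M for mega), and a gene was called when its adjusted p was under 0.05 in edgeR's quasi-likelihood test, adjusted by Benjamini-Hochberg over every tested gene of its table. Of the 41 genes, 40 passed the filter on low counts in hearts and 41 in macrophages.

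All hearts came from male Cd163-/- mice on a C57BL/6 background. CD163 is a scavenger receptor of macrophages that takes up haptoglobin-haemoglobin complexes. Hearts of mice given recombinant IL-10, an anti-inflammatory cytokine, by subcutaneous injection (50 µg/kg/day, on set days between day 0 and day 27; n = 3) were compared with hearts of mice given saline (n = 3). Per the design text, mice had transverse aortic constriction, which narrows the aorta and puts pressure load on the left ventricle, at 8 weeks of age. The surgery is not named in the label of any one heart. Both heart groups carry the Cd163-/- genotype, and hearts of wild-type or sham-operated mice were not analysed here. Peritoneal macrophages, drawn after thioglycolate and selected by adherence, were Cd163-/- (n = 2) or wild type (n = 2), and all of them had 100 nM dexamethasone, a synthetic glucocorticoid, for 48 h. Separate animals or cultures are not stated for the replicates. The p-values therefore cover the spread among these libraries alone, and part of it may be technical.

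Total counts were 13.5 to 14.9 M in hearts and 16.7 to 18.6 M in macrophages, and 3 counts, the limit that a count of 0 allows for counting error, come to 0.192 to 0.220 CPM in a heart and 0.149 to 0.190 CPM in a macrophage library. Cd163, the targeted gene, had 9 and 14 counts in Cd163-/- macrophages, against 352 and 205 counts in wild-type macrophages (log2 fold change -4.79, SE 0.39, edgeR adjusted p = 0.00130). In the hearts, where every animal carried the same genotype label, it had 37, 43 and 34 counts with IL-10, against 45, 47 and 57 counts with saline. Cd163 was not called in hearts (log2 fold change -0.36, SE 0.26, edgeR adjusted p = 0.395). The labels do not say which part of the gene was deleted. The heart libraries held cardiomyocyte markers at 27613 to 32695 summed CPM with IL-10 and 33343 to 40401 with saline. The macrophage libraries held macrophage markers at 21509 to 22465 summed CPM in Cd163-/- cells and 23850 to 28547 in wild-type cells.

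Before S phase, the origin recognition complex with CDC6 and CDT1 loads the ring of MCM2 to MCM7 onto DNA as an inactive helicase. CDC45, the GINS complex and MCM10 then switch that helicase on, DNA polymerases held in place by the PCNA clamp copy the strands, and LIG1 seals the fragments of the lagging strand. Many of these genes are transcribed together at the G1 to S transition under E2F factors, which the retinoblastoma protein family holds back in resting cells. Mitotic genes peak later and are known for another promoter element, the CHR. Adult cardiomyocytes seldom divide, and most cycling cells of the adult mouse heart are of other types. Elicited peritoneal macrophages are also held to divide little in culture, though division was not measured in these cultures.

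Promoter stretches are printed because genes of this programme are often described by letters that their promoters share. RefSeq windows of GRCm38.p6, 250 bases before to 50 after the start, were found for 35 of the 41 genes, and not for Gins1, Gins2, Rfc2, Ccne2, Pole and Mcm4. Both strands were searched for the E2F-type letters TTTCCCGC, TTTGGCGC, TTTCGCGC or TTTGCCGC and for the CHR letters TTTGAA. Matches of 2 E2F-type words can overlap on opposite strands, and no CHR match overlapped an E2F-type match in the S-phase genes. E2F-type letters stood in 12 of 35 genes (34.3%), against 704 of 27025 genes with a window (2.60%). CHR letters stood in 4 of 35 (11.4%), against 5466 of 27025 (20.2%). Of the replication genes called lower in IL-10 hearts, 6 of 13 with a window held E2F-type letters (46.2%), against 6 of 21 that were not called (28.6%), a difference that was not tested. The 200 bases before the start are given 5′ to 3′ on the gene's strand, with matches in capitals. In Mcm5 (chr8:75109309-75109508, plus strand) and Mcm6 (chr1:128359706-128359905, minus strand), the run of 12 capitals holds a pair of overlapping matches, 1 on each strand.
Mcm5: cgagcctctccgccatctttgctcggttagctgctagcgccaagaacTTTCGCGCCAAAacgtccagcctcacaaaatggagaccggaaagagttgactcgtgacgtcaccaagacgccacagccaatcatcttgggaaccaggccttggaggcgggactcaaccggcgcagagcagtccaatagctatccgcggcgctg
Mcm6: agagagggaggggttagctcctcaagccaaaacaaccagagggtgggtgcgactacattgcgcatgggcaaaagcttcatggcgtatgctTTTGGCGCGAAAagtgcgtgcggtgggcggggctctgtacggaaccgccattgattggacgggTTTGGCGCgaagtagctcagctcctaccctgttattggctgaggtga

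Uhrf1 (chr17:56304113-56304312, plus strand) also fell in IL-10 hearts and holds 1 match. Orc1 (chr4:108579254-108579453, plus strand), Cdc6 (chr11:98907951-98908150, plus strand), Pola1 (chrX:93632156-93632355, minus strand) and Rfc3 (chr5:151651209-151651408, minus strand) hold matches and were not called in hearts.
Uhrf1: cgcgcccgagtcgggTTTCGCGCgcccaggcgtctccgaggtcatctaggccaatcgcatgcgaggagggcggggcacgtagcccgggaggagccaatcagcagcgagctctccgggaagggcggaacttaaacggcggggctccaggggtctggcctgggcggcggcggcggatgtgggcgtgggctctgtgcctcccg
Orc1: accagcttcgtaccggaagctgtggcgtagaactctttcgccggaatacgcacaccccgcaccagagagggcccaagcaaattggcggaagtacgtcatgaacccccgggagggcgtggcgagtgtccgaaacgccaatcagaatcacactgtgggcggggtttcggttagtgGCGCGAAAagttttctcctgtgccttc
Cdc6: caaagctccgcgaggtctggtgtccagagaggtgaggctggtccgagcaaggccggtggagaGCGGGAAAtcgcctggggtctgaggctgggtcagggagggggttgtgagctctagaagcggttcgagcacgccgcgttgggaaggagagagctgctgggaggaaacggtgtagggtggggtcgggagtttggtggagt
Pola1: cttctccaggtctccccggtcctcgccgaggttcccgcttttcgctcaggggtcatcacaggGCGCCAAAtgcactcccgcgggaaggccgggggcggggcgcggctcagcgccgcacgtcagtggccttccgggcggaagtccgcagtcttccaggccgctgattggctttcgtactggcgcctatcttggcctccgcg
Rfc3: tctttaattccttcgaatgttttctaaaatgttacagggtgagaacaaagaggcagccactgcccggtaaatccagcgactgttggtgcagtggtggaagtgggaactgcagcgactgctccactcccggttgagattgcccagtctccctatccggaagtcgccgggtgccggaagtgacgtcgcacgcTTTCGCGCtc

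Rrm2 (chr12:24708054-24708253, plus strand) and Mcm10 (chr2:5012792-5012991, minus strand) are shown for the reverse case: both fell in IL-10 hearts, and neither stretch holds these letters.
Rrm2: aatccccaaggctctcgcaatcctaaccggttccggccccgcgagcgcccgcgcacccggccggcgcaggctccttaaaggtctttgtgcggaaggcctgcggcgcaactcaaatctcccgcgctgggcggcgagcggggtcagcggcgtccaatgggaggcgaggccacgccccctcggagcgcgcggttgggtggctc
Mcm10: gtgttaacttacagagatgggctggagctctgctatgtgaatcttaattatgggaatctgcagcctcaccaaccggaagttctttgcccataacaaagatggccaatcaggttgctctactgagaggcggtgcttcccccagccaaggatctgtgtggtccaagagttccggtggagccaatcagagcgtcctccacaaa

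A match is a description of letters and not a bound site, and an absent match says only that these letters are not in this window.

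**Figure D1:**
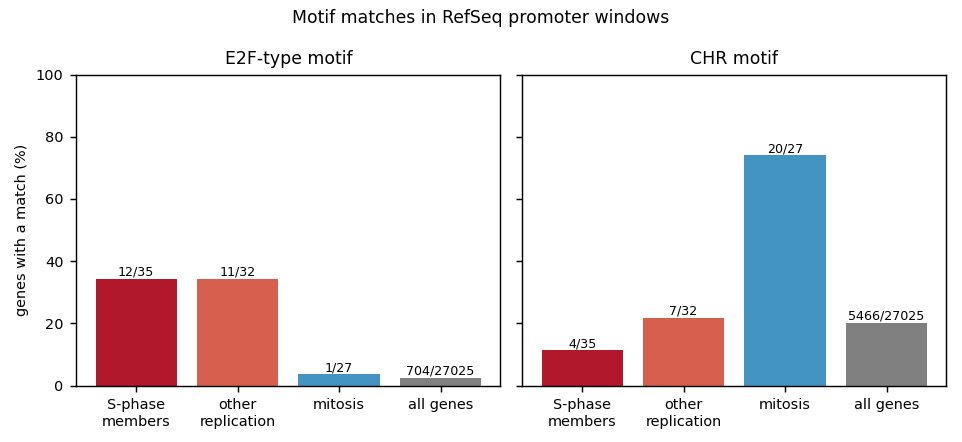
Share of genes (%) whose RefSeq promoter window holds E2F-type letters (left) or CHR letters (right), in the S-phase genes, the other replication genes, the mitosis genes and all genes with a window; numbers above the bars are genes with a match over genes with a window. E2F-type letters stood in 34.3% of the S-phase genes and 2.60% of all genes, and CHR letters in 74.1% of the mitosis genes.

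In IL-10 hearts, 14 of the 40 tested replication genes fell and 0 rose, and 26 were not called. Over all tested genes of the heart table, 6.7% were called lower and 6.86% higher. The genes that fell were all 6 of the MCM ring, Mcm10, the ligase Lig1, the nucleotide enzymes Rrm1, Rrm2, Tyms and Tk1, and the chromatin genes Chaf1b and Uhrf1. The polymerases, the clamp and its loader, the single-strand binding proteins, the licensing factors, and cyclin E with E2f1 held no called gene. The log2 fold change (IL-10 over saline) was below 0 in 36 of 40 genes with a median of -0.63, against a median of -0.0079 over all tested genes, of which 50.9% were below 0. All 3 IL-10 hearts lay below all 3 saline hearts in 20 of 40 genes, and above them in 0. Higher calls were 50.6% of all heart calls, and 39.0% with upper-quartile scaling and 35.6% with library size alone, while the replication genes kept 14 calls lower under each. Among all tested heart genes, all IL-10 hearts were below all saline hearts in 15.8% and above them in 15.7%. In bulk heart RNA, fewer cells of a type and less RNA per cell cannot be told apart. Mitochondrial genes held 33.7% to 39.4% of heart counts, which lowers the depth left for rare transcripts such as these.

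**Figure D2:**
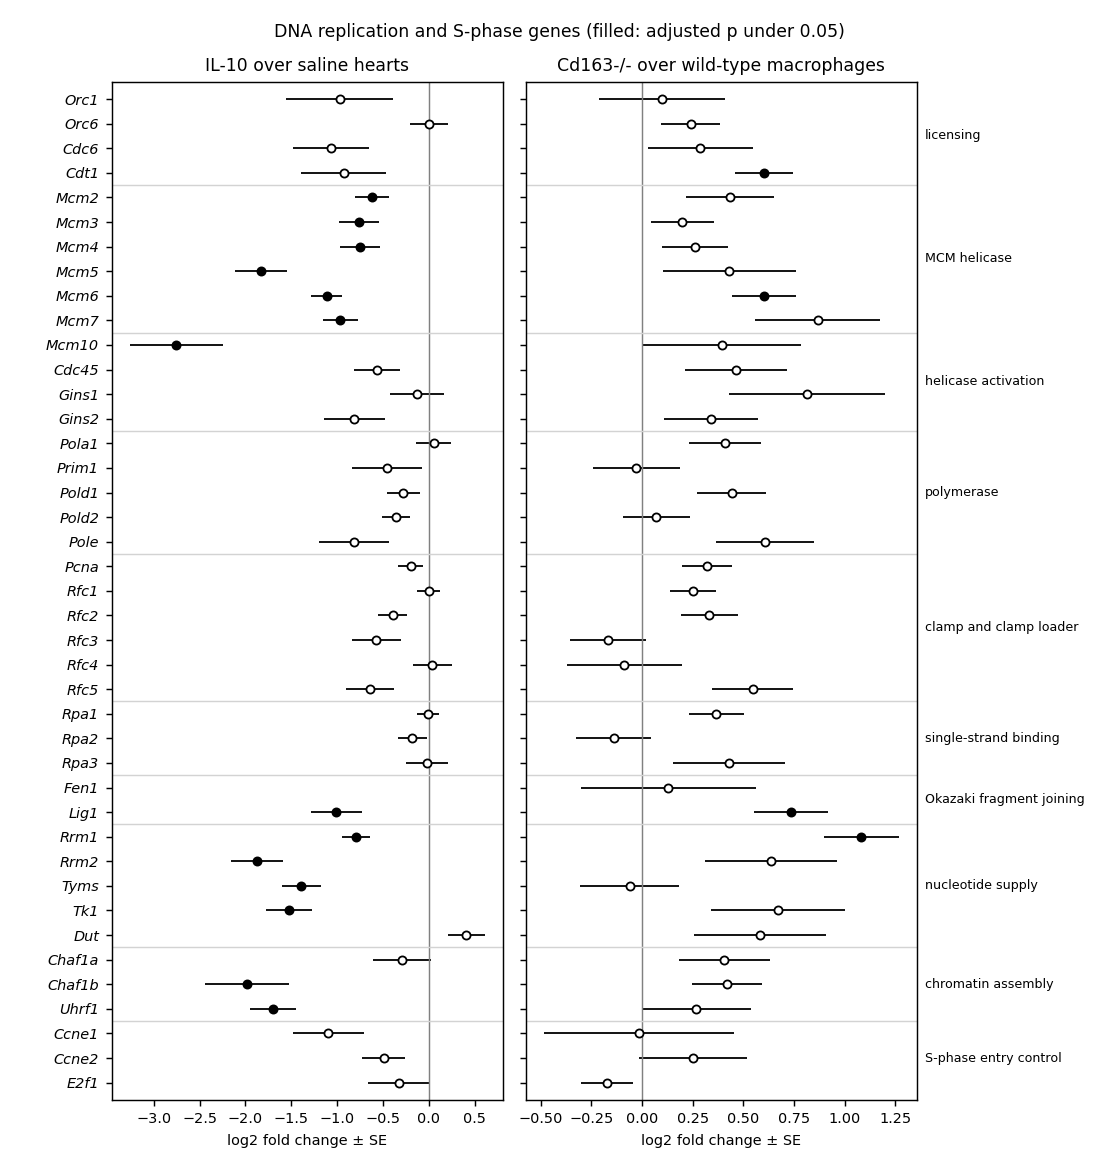
Log2 fold change ± SE of each replication gene, grouped by role, for IL-10 over saline hearts (left, n = 3 each) and Cd163-/- over wild-type macrophages (right, n = 2 each); filled points have an adjusted p under 0.05, and the horizontal scales of the panels differ. In hearts 14 genes are filled and all lie left of 0; in macrophages 4 are filled and lie right of 0.

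The 6 subunits of the MCM2 to MCM7 ring, the engine of the replicative helicase, all fell in IL-10 hearts, with log2 fold changes from -1.83 to -0.62. Mcm5 (ENSMUSG00000005410, chromosome 8, 75109569 to 75128439, GENCODE M21 on GRCm38) fell most of the ring. It had 2.14, 2.42 and 4.14 CPM in IL-10 hearts, against 14.4, 7.13 and 9.53 CPM in saline hearts (log2 fold change -1.83, SE 0.28, edgeR adjusted p = 0.000608). Mcm6 (ENSMUSG00000026355, chromosome 1, 128331590 to 128359664) had 7.45, 10.1 and 11.9 CPM in IL-10 hearts, against 24.04, 17.8 and 21.9 CPM in saline hearts (log2 fold change -1.12, SE 0.17, edgeR adjusted p = 0.000629). The groups did not overlap in either gene. Mcm7 fell as well (log2 fold change -0.97, SE 0.19, edgeR adjusted p = 0.00314), and its lowest saline heart stood at 13.5 CPM while its highest IL-10 heart stood at 9.48 CPM. Mcm3 and Mcm2 changed less (log2 fold change -0.76, SE 0.22, edgeR adjusted p = 0.0276, and log2 fold change -0.62, SE 0.19, edgeR adjusted p = 0.0379). Mcm4 was the ring gene whose groups overlapped: IL-10 replicate 3 had 8.00 CPM and saline replicate 3 had 7.93 CPM (log2 fold change -0.75, SE 0.22, edgeR adjusted p = 0.0317).

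Length here is all bases in any annotated exon of a gene, which can exceed a single transcript. For Mcm7 it was 4426 bases, against 2962 for its longest coding transcript, so orders between genes depend on this choice. Per length, the ring subunits were not at one level. By this length the highest was Mcm6, at 2.10 CPM per kb in IL-10 hearts and 4.55 in saline hearts. Mcm2 was at 0.743 CPM per kb in IL-10 hearts and 1.14 in saline hearts. Mcm5 stood at 0.726 CPM per kb in IL-10 hearts and 2.59 in saline hearts. On this scale Mcm2 and Mcm5 were close in IL-10 hearts, within the spread of either, and apart in saline hearts. The calls of Mcm5, Mcm6 and Mcm7 held when any single heart was left out. Those of Mcm2, Mcm3 and Mcm4 did not: without IL-10 replicate 1 their edgeR adjusted p-values were 0.108, 0.108 and 0.126, and without saline replicate 1 they were 0.158, 0.167 and 0.142. They were also lost without IL-10 replicate 2 (0.126, 0.106 and 0.127), Mcm2 and Mcm3 without saline replicate 3 (0.0692 and 0.061), and Mcm4 without saline replicate 2 (0.0611).

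The factors that switch the loaded helicase on were mostly below saline, and 1 of 4 was called. Mcm10, a scaffold that helps start unwinding (ENSMUSG00000026669, chromosome 2, 4989714 to 5012791), had 0.414, 0.220 and 0.281 CPM in IL-10 hearts, against 3.22, 1.09 and 2.05 CPM in saline hearts, and fell the most of the tested replication genes (log2 fold change -2.75, SE 0.51, edgeR adjusted p = 0.00210). In counts this was 6, 3 and 4 in IL-10 hearts, against 44, 15 and 32 in saline hearts, so the IL-10 level is close to the limit of 3 counts. Cdc45, which rides with the helicase, had 2.55, 2.49 and 3.16 CPM in IL-10 hearts, against 3.95, 3.64 and 4.54 CPM in saline hearts, and the groups did not overlap (log2 fold change -0.56, SE 0.25, edgeR adjusted p = 0.150). Gins2 had 1.10, 1.83 and 2.32 CPM in IL-10 hearts, against 2.27, 3.71 and 3.26 CPM in saline hearts (log2 fold change -0.82, SE 0.33, edgeR adjusted p = 0.117), with 1 saline heart inside the IL-10 range. Its exons share 67.3% of their bases with Gse1, and these counts do not separate the strands. Gins1, of the same complex, had 1.86, 2.35 and 2.18 CPM in IL-10 hearts, against 2.48, 2.40 and 2.11 CPM in saline hearts, and its groups overlapped (log2 fold change -0.13, edgeR adjusted p = 0.809).

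The licensing factors were at low levels, apart from Orc6, and 0 of 4 were called. Cdc6, which loads the ring with CDT1, had 0.758, 0.880 and 1.69 CPM in IL-10 hearts, against 3.14, 1.24 and 2.62 CPM in saline hearts (log2 fold change -1.07, SE 0.42, edgeR adjusted p = 0.101). Cdt1 had 1.03, 0.367 and 2.39 CPM in IL-10 hearts, against 2.19, 3.06 and 2.05 CPM in saline hearts (log2 fold change -0.93, SE 0.46, edgeR adjusted p = 0.196). In both genes IL-10 replicate 3 stood above its group mates and inside the saline range. Without that heart, both passed, Cdc6 with a log2 fold change of -1.49 (edgeR adjusted p = 0.0487) and Cdt1 with -1.75 (edgeR adjusted p = 0.0232), and Cdc6 also passed without saline replicate 2 (-1.37, edgeR adjusted p = 0.0311). Orc1, the largest subunit of the origin recognition complex, had 2, 4 and 13 counts in IL-10 hearts, against 17, 12 and 9 counts in saline hearts (log2 fold change -0.98, SE 0.58, edgeR adjusted p = 0.295). Orc6, its smallest subunit, was the most abundant of the licensing group at 6.69, 6.31 and 5.48 CPM in IL-10 hearts, against 6.87, 6.77 and 4.86 CPM in saline hearts, and the groups overlapped (log2 fold change 0.0016, edgeR adjusted p = 0.997).

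No DNA polymerase gene passed in hearts, and the 5 tested had edgeR adjusted p-values from 0.124 to 0.89. Pold2, an accessory subunit of the lagging-strand polymerase delta, had 10.5, 12.3 and 11.2 CPM in IL-10 hearts, against 13.4, 13.5 and 16.6 CPM in saline hearts, with no overlap of the groups (log2 fold change -0.36, SE 0.15, edgeR adjusted p = 0.124). Pole, the catalytic subunit of the leading-strand polymerase, had 1.45, 0.587 and 1.90 CPM in IL-10 hearts, against 2.41, 2.11 and 2.43 CPM in saline hearts (log2 fold change -0.81, SE 0.38, edgeR adjusted p = 0.172), also without overlap. Neither difference passed after adjustment over all genes. Pold1, the catalytic subunit of polymerase delta, had 6.21, 6.97 and 6.39 CPM in IL-10 hearts, against 8.62, 6.84 and 8.25 CPM in saline hearts (log2 fold change -0.28). Prim1, the primase subunit that makes RNA primers, had 1.03, 2.13 and 3.51 CPM in IL-10 hearts, against 4.31, 2.33 and 2.56 CPM in saline hearts (log2 fold change -0.46). In both the groups overlapped. Pola1, the catalytic subunit of the priming polymerase, had 6.89, 7.92 and 6.39 CPM in IL-10 hearts, against 7.89, 6.70 and 5.89 CPM in saline hearts, and the log2 fold change was 0.05.

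The sliding clamp and its loader, RFC1 to RFC5, also held no call in 6 genes. Pcna, the clamp, was per length the most abundant replication gene of the heart, at 16.9 CPM per kb in IL-10 hearts and 19.4 in saline hearts. It had 36.2, 41.7 and 43.7 CPM in IL-10 hearts, against 57.6, 41.7 and 40.4 CPM in saline hearts, where saline replicate 1 alone stood above the IL-10 range (log2 fold change -0.20, SE 0.14, edgeR adjusted p = 0.370). Rfc5 had 3.17, 2.35 and 2.81 CPM in IL-10 hearts, against 5.41, 3.35 and 4.29 CPM in saline hearts (log2 fold change -0.64, SE 0.26, edgeR adjusted p = 0.119), and Rfc2 had 14.1, 10.4 and 15.4 CPM in IL-10 hearts, against 19.7, 16.5 and 16.6 CPM in saline hearts (log2 fold change -0.40, SE 0.16, edgeR adjusted p = 0.109). Neither gene's groups overlapped. Rfc2 shares 15.1% of its exon bases with Lat2, and Rfc5 10.7% with Wsb2. Rfc3 had 2.34, 3.15 and 4.99 CPM in IL-10 hearts, against 5.85, 4.73 and 5.05 CPM in saline hearts, with IL-10 replicate 3 inside the saline range (log2 fold change -0.58, SE 0.27, edgeR adjusted p = 0.171). Without that heart Rfc3 passed at a log2 fold change of -0.91 (edgeR adjusted p = 0.0373). Rfc1, the large subunit, had 21.9, 27.1 and 26.96 CPM in IL-10 hearts, against 27.3, 26.6 and 22.3 CPM in saline hearts, and Rfc4 had 4.48, 5.50 and 5.27 CPM in IL-10 hearts, against 5.26, 5.53 and 4.09 CPM in saline hearts. Both overlapped, with log2 fold changes of -0.0046 and 0.04, whose signs turned under other scalings.

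Replication protein A, which coats single-stranded DNA, showed no called subunit among 3, and the median log2 fold change was -0.02. Rpa1 had 30.3, 27.5 and 32.5 CPM in IL-10 hearts, against 31.8, 27.95 and 31.2 CPM in saline hearts. Rpa2 had 8.89, 8.44 and 9.27 CPM in IL-10 hearts, against 10.4, 8.74 and 11.003 CPM in saline hearts. Rpa3 had 6.76, 6.24 and 5.97 CPM in IL-10 hearts, against 8.92, 5.24 and 5.12 CPM in saline hearts. The groups overlapped in all 3 genes, with edgeR adjusted p-values from 0.5 to 0.968. After Pcna and Pold2 (5.97 CPM per kb in IL-10 hearts and 7.64 in saline hearts), Rpa3 was next per length, at 5.56 CPM per kb in IL-10 hearts and 5.66 in saline hearts, and then Rpa1, at 5.40 CPM per kb in IL-10 hearts and 5.44 in saline hearts. RPA also serves DNA repair, as do Pcna and the RFC subunits. The error was small for Rpa1 (SE 0.12) and large for Orc1 (SE 0.58), so a missing call means less for Orc1.

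Of the pair that finishes lagging-strand fragments, Lig1 fell and Fen1 could not be tested. Lig1, DNA ligase 1 (ENSMUSG00000056394, chromosome 7, 13277283 to 13311433), had 2.21, 3.08 and 3.30 CPM in IL-10 hearts, against 6.28, 3.71 and 7.23 CPM in saline hearts (log2 fold change -1.01, SE 0.28, edgeR adjusted p = 0.0233). Its lowest saline heart, at 3.71 CPM, stood just above the highest IL-10 heart at 3.30 CPM. The call was lost without IL-10 replicate 1 (edgeR adjusted p = 0.0874), IL-10 replicate 2 (0.0688), saline replicate 1 (0.0826) or saline replicate 3 (0.127). Fen1, the flap endonuclease, had 3, 5 and 2 counts in IL-10 hearts, against 5, 7 and 13 counts in saline hearts, and 78.8% of its exon bases are shared with Gm10143 on the other strand. Without strand, reads of this pair cannot be told apart, and Gm10143 itself had 0, 0 and 0 counts in IL-10 hearts, against 1, 0 and 0 counts in saline hearts.

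Genes of nucleotide supply held 4 calls in 5 and a median log2 fold change of -1.39. Rrm2, the small and S-phase-limited subunit of ribonucleotide reductase (ENSMUSG00000020649, chromosome 12, 24708241 to 24714146), had 1.52, 1.25 and 2.18 CPM in IL-10 hearts, against 7.45, 4.73 and 6.01 CPM in saline hearts (log2 fold change -1.87, SE 0.28, edgeR adjusted p = 0.000519). Rrm1, its large subunit (ENSMUSG00000030978, chromosome 7, 102441695 to 102469771), had 13.7, 18.7 and 20.5 CPM in IL-10 hearts, against 34.8, 27.4 and 29.5 CPM in saline hearts, a smaller change at a higher level (log2 fold change -0.80, SE 0.15, edgeR adjusted p = 0.00248). Tyms, thymidylate synthase (ENSMUSG00000025747, chromosome 5, 30058202 to 30073617), had 3.45, 3.15 and 2.95 CPM in IL-10 hearts, against 7.97, 6.99 and 10.1 CPM in saline hearts (log2 fold change -1.39, SE 0.21, edgeR adjusted p = 0.000605). In all 3 genes every IL-10 heart lay below every saline heart, and each call held without any single heart. Tk1, the salvage thymidine kinase, fell as well (log2 fold change -1.53, SE 0.25, edgeR adjusted p = 0.000942) with no overlap. Dut, the dUTPase that keeps uracil out of DNA, went against them in value, at 13.1, 10.3 and 7.65 CPM in IL-10 hearts, against 8.77, 6.48 and 8.12 CPM in saline hearts, with overlapping groups (log2 fold change 0.41, SE 0.20, edgeR adjusted p = 0.195).

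Among genes that rebuild chromatin behind the fork, Uhrf1 and Chaf1b fell and Chaf1a was not called. Uhrf1, which brings the maintenance methyltransferase DNMT1 to new DNA (ENSMUSG00000001228, chromosome 17, 56303321 to 56323486), had 2.07, 1.98 and 3.16 CPM in IL-10 hearts, against 9.50, 6.55 and 7.42 CPM in saline hearts (log2 fold change -1.70, SE 0.25, edgeR adjusted p = 0.000406). Chaf1b, the middle subunit of chromatin assembly factor 1, had 4, 5 and 12 counts in IL-10 hearts, against 36, 21 and 28 counts in saline hearts (log2 fold change -1.98, SE 0.46, edgeR adjusted p = 0.00903). Both were lower in each IL-10 heart than in any saline heart. Chaf1b rests on few counts and lost its call without IL-10 replicate 2 (edgeR adjusted p = 0.0601) or saline replicate 1 (edgeR adjusted p = 0.058). Chaf1a, the large subunit, had 1.45, 2.27 and 2.32 CPM in IL-10 hearts, against 2.996, 2.18 and 2.24 CPM in saline hearts, with overlap (log2 fold change -0.30, SE 0.31, edgeR adjusted p = 0.576). It shares 52.5% of its exon bases with Ubxn6.

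The genes that govern entry to S phase did not pass. Ccne1, cyclin E1, had 1.03, 0.514 and 0.983 CPM in IL-10 hearts, against 1.90, 2.04 and 1.54 CPM in saline hearts (log2 fold change -1.10, SE 0.39, edgeR adjusted p = 0.0713). Ccne2 had 3.10, 3.37 and 3.23 CPM in IL-10 hearts, against 5.26, 4.004 and 4.41 CPM in saline hearts (log2 fold change -0.49, SE 0.23, edgeR adjusted p = 0.180). In both cyclins every IL-10 heart was below every saline heart. Ccne1 passed when genes were filtered at 1 CPM (edgeR adjusted p = 0.0456). E2f1, the activating transcription factor of this programme, had 1.93, 1.25 and 2.39 CPM in IL-10 hearts, against 2.48, 1.75 and 2.75 CPM in saline hearts, and the groups overlapped (log2 fold change -0.33, SE 0.33, edgeR adjusted p = 0.561).

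**Figure D3:**
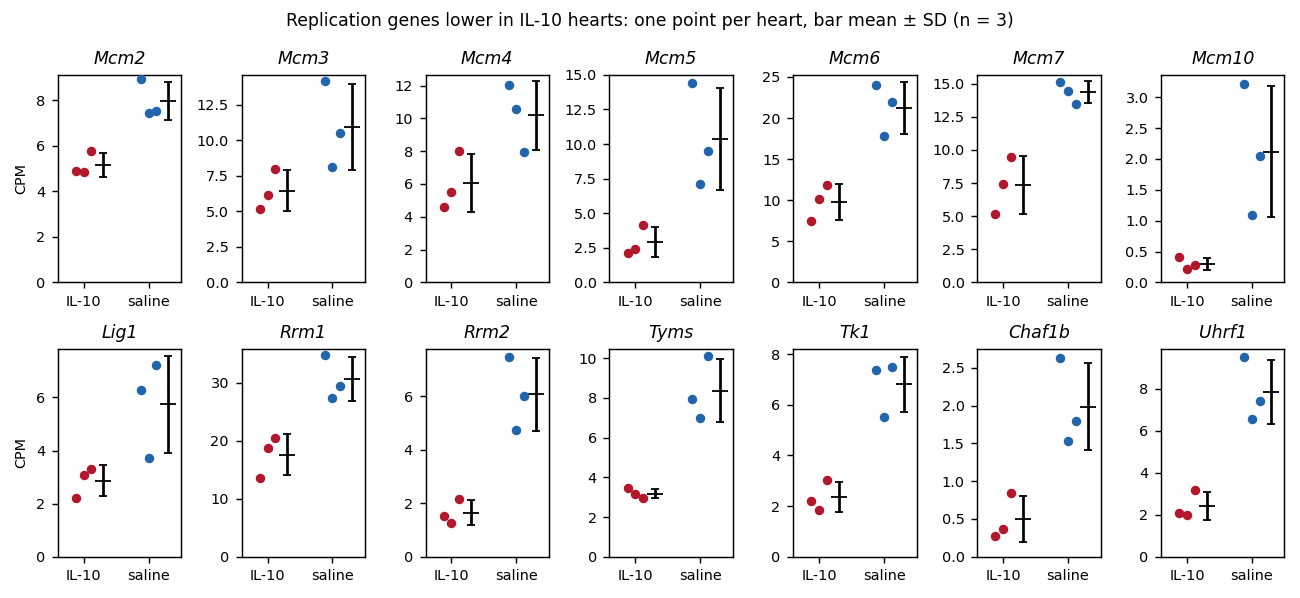
Level in CPM of the 14 replication genes called lower, with 1 point per heart (IL-10 left, saline right) and the mean ± SD beside them (n = 3 each); each vertical axis starts at 0. IL-10 hearts lie below saline hearts in 13 of the 14 genes, with Mcm4 the exception.

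Within each group the called genes shared much of their order over the hearts. IL-10 replicate 3 was the highest IL-10 heart in 12 of the 14 genes, and saline replicate 1 was the highest saline heart in 11 of the 14. Saline replicate 2 was the lowest saline heart in 12 of the 14. In the 26 uncalled genes the same 3 counts were 14, 17 and 14. These orders were not counted over all tested genes, so whether they are particular to the replication genes was not tested. Summed over the 14 genes, the level was 55.2, 67.1 and 83.5 CPM in IL-10 hearts, against 168, 123 and 143 CPM in saline hearts. Each IL-10 heart lay below each saline heart. The 14 genes were picked as lower in this same comparison, so that order follows from the choice and is no further result. Over all 41 genes the sums were 244, 262 and 295 CPM in IL-10 hearts and 421, 334 and 358 CPM in saline hearts. The summed level of the 26 tested genes that were not called was 189, 195 and 211 CPM with IL-10 and 252, 210.1 and 215 CPM with saline, where IL-10 replicate 3 and saline replicate 2 overlapped. Of the 14 calls, 9 held without every single heart in turn, and 5 were lost without at least 1 (Mcm2, Mcm3, Mcm4, Lig1 and Chaf1b). The count of genes called lower ran from 9 to 17 over these runs, and was 9 without IL-10 replicate 2 or without saline replicate 1. Over all tested genes, lower calls were 447 and 561 in those 2 runs, against 919 with every heart.

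Other cell-cycle lists gave further values in the same hearts. Of 41 other replication genes, 37 were tested, 7 fell and 0 rose, with a median log2 fold change of -0.22. Over all tested heart genes, 6.7% were called lower and 6.86% higher. The falls with the smallest p-values were Dnmt1, the maintenance methyltransferase, with 10.5, 9.54 and 14.04 CPM in IL-10 hearts, against 22.7, 16.02 and 18.1 CPM in saline hearts (log2 fold change -0.73, SE 0.17, edgeR adjusted p = 0.00949), and Cdc7, the kinase that fires origins (log2 fold change -1.38, SE 0.34, edgeR adjusted p = 0.0141). Clspn, a fork checkpoint adaptor (log2 fold change -1.50, SE 0.39, edgeR adjusted p = 0.0167), and Wdhd1, which couples polymerase alpha to the helicase (log2 fold change -1.38, SE 0.36, edgeR adjusted p = 0.0177), followed. All 4 calls were lost without saline replicate 1, with edgeR adjusted p-values of 0.0621, 0.0730, 0.0807 and 0.112. They were also lost without IL-10 replicate 1 (Cdc7, Clspn and Wdhd1), IL-10 replicate 2 (Dnmt1, Cdc7 and Clspn) or IL-10 replicate 3 (Wdhd1), and that of Clspn by the DESeq2 Wald test (adjusted p = 0.0507).

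Of 26 E2F, RB and G1 regulators, 25 were tested, 5 fell and 4 rose, with a median log2 fold change of -0.26. Over all tested heart genes, 6.7% were called lower and 6.86% higher. The genes given are those with the smallest p-values, with Ccnd1 and Rb1 given in any case, so not every fall or rise is listed. Ccna2, cyclin A2, which acts in S phase and at mitotic entry, had 1.93, 1.69 and 1.61 CPM in IL-10 hearts, against 10.2, 9.17 and 9.98 CPM in saline hearts (log2 fold change -2.48, SE 0.21, edgeR adjusted p = 4.55e-06). Ccnd1, cyclin D1, had 58.5, 42.5 and 56.5 CPM in IL-10 hearts, against 89.01, 91.6 and 63.3 CPM in saline hearts (log2 fold change -0.63, SE 0.15, edgeR adjusted p = 0.00993), a call lost without IL-10 replicate 2 (edgeR adjusted p = 0.0760). Both cyclins were lower in each IL-10 heart than in any saline heart. The genes that rose included Rbl2, the RB-family protein p130 of resting cells, with 31.99, 32.8 and 33.98 CPM in IL-10 hearts, against 21.8, 24.7 and 20.98 CPM in saline hearts (log2 fold change 0.55, SE 0.12, edgeR adjusted p = 0.00499). Tfdp2, an E2F partner (log2 fold change 0.52, SE 0.11, edgeR adjusted p = 0.00586), and E2f6, a repressive E2F (log2 fold change 0.45, SE 0.10, edgeR adjusted p = 0.00957), also rose. Rb1 had 21.1, 22.6 and 22.5 CPM in IL-10 hearts, against 21.6, 20.4 and 20.9 CPM in saline hearts and was not called (log2 fold change 0.07, edgeR adjusted p = 0.733).

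The mitosis genes fell further than the replication genes in value: 29 of 30 fell, with a median log2 fold change of -2.58 and a summed level of 30.6 to 36.8 CPM in IL-10 hearts, against 151 to 184 CPM in saline hearts. Top2a, topoisomerase II alpha (log2 fold change -2.32, SE 0.17, edgeR adjusted p = 1.55e-06), Ccnb1, cyclin B1 (log2 fold change -4.28, SE 0.32, edgeR adjusted p = 1.55e-06), Tpx2, a spindle assembly factor (log2 fold change -2.67, SE 0.22, edgeR adjusted p = 4.55e-06), and Anln, a cytokinesis scaffold (log2 fold change -2.56, SE 0.22, edgeR adjusted p = 4.55e-06), had the smallest p-values. Mki67, the Ki-67 proliferation marker, had 1.65, 1.25 and 1.90 CPM in IL-10 hearts, against 10.8, 8.88 and 12.1 CPM in saline hearts (log2 fold change -2.72, SE 0.23, edgeR adjusted p = 4.55e-06). Cdk1, the mitotic kinase, had 1.10, 1.25 and 1.54 CPM in IL-10 hearts, against 10.2, 5.46 and 8.70 CPM in saline hearts (log2 fold change -2.64, SE 0.29, edgeR adjusted p = 3.63e-05). The remaining mitosis gene, Cenpf, had a log2 fold change of -0.64 (edgeR adjusted p = 0.216). The difference between the lists was not tested.

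**Figure D4:**
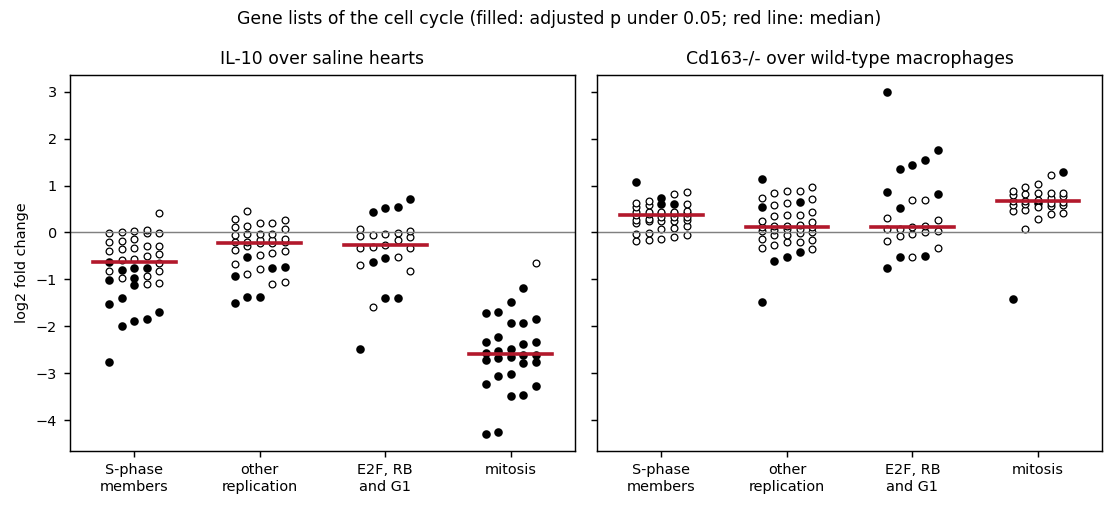
Log2 fold change of each tested gene in the S-phase list and in 3 comparison lists, for IL-10 over saline hearts (left) and Cd163-/- over wild-type macrophages (right); filled points have an adjusted p under 0.05, and the red line is the list's median. In hearts the medians are -0.63 for S-phase genes and -2.58 for mitosis genes; in macrophages they are 0.37 and 0.66.

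Some markers of other cell types were called in the same hearts, where 13.6% of all tested genes were called in either direction. All 3 tested erythroid markers of 5 fell (Alas2, Hba-a1 and Hbb-bt), with a summed level of 104, 132 and 173 CPM in IL-10 hearts, against 204, 439.9 and 375 CPM in saline hearts. Hemgn and Slc4a1, which mark red-cell precursors, were at 0 to 1.41 CPM in every heart, and Hemgn had 0 counts in 4 of the 6 hearts. Saline replicate 1, highest of its group in 11 of the 14 called replication genes, was the lowest of its group in the erythroid, endothelial and cardiomyocyte sums. IL-10 replicate 3, highest of its group in 12 of the 14, was also highest in the erythroid, fibroblast, endothelial and macrophage sums, and lowest in the cardiomyocyte sum. Saline replicate 2, lowest of its group in 12 of the 14, was also lowest in the fibroblast and macrophage sums, and highest in the erythroid, endothelial and cardiomyocyte sums. Of fibroblast markers, 2 of 6 fell (Col1a1 and Col3a1) and 1 rose (Dcn), with sums of 1958 to 2419 CPM with IL-10 and 2193 to 2529.6 CPM with saline. Of endothelial markers, 1 of 5 fell (Kdr), with sums of 433 to 508 CPM with IL-10 and 497 to 599 CPM with saline. Of macrophage markers, 1 of 7 fell (Cd68), with sums of 675 to 741 CPM with IL-10 and 472 to 817 CPM with saline. Cardiomyocyte markers held 1 fall in 6 (Actc1), and 0 of 1 lymphocyte, 0 of 2 neutrophil and 0 of 3 mesothelial markers tested were called. The part of these cell types in the replication genes was not tested.

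In macrophages, 4 of the 41 replication genes rose in Cd163-/- cells, 0 fell and 37 were not called. Over all tested genes, 13.1% were called higher and 13.3% lower, so the share of replication genes called (9.76%) was not above that of the table. The log2 fold change (Cd163-/- over wild type) was above 0 in 34 of 41 genes, with a median of 0.37, against 0.01 over all tested genes. Both Cd163-/- libraries lay above both wild-type libraries in 21 of 41 genes and below them in 2 (Rfc3 and E2f1). Among all tested macrophage genes, 49.1% had a log2 fold change below 0, both Cd163-/- libraries were above in 35.3% and both were below in 34.1%. Higher calls were 49.6% of all macrophage calls, and 62.2% with upper-quartile scaling and 68.6% with library size alone, which moved the median over all genes up by 0.11 and 0.18. Relative to that shift the median of the replication genes, 0.48 and 0.54, stayed near its first value. The called genes were Cdt1, Mcm6, Lig1 and Rrm1.

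Rrm1 rose most, with 205 and 148 CPM in Cd163-/- macrophages, against 77.6 and 88.9 CPM in wild-type macrophages (log2 fold change 1.08, SE 0.19, edgeR adjusted p = 0.0118). Lig1 had 25.1 and 19.5 CPM in Cd163-/- macrophages, against 12.5 and 14.3 CPM in wild-type macrophages (log2 fold change 0.74, SE 0.18, edgeR adjusted p = 0.0325). Mcm6 had 78.9 and 60.8 CPM in Cd163-/- macrophages, against 43.4 and 48.6 CPM in wild-type macrophages (log2 fold change 0.60, SE 0.16, edgeR adjusted p = 0.0398). In these 3 genes, and in Cdt1, Cd163-/- replicate 1 was the higher of its pair and both Cd163-/- libraries stood above both wild-type libraries. Cdt1 had 22.5 and 20.1 CPM in Cd163-/- macrophages, against 13.8 and 14.3 CPM in wild-type macrophages (log2 fold change 0.60, SE 0.14, edgeR adjusted p = 0.0299). Leaving out Cd163-/- replicate 1 ended all 4 calls, with edgeR adjusted p-values of 0.0683 for Rrm1, 0.171 for Lig1, 0.206 for Mcm6 and 0.160 for Cdt1. Without Cd163-/- replicate 2, Lig1 (0.0562), Mcm6 (0.0556) and Cdt1 (0.0869) were lost, and without wild-type replicate 1 the same 3 were lost (0.0661, 0.0808 and 0.0663). Without wild-type replicate 2, Cdt1 was lost (0.059). Where 1 library of a pair was left out, the lone library was taken to vary like the other group.

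The pair of Cd163-/- libraries differed from each other across the list. Replicate 1 was above replicate 2 in 39 of 41 genes, with a median ratio of 1.30 and a ratio above 1.5 in 11 genes. The same counts were not made over all tested genes, so whether this order is particular to the replication genes was not tested. Summed levels were 1233 and 977 CPM in Cd163-/- macrophages, against 776 and 855 CPM in wild-type macrophages. Mcm5 had 35.7 and 17.4 CPM in Cd163-/- macrophages, against 18.4 and 21.1 CPM in wild-type macrophages, so that replicate 1 stood above and replicate 2 below both wild-type libraries (log2 fold change 0.43, SE 0.33, edgeR adjusted p = 0.369). Mcm7 had 39.4 and 23.8 CPM in Cd163-/- macrophages, against 13.5 and 21.2 CPM in wild-type macrophages (log2 fold change 0.87, SE 0.31, edgeR adjusted p = 0.0876), and Tk1 had 18.7 and 9.38 CPM in Cd163-/- macrophages, against 9.02 and 8.63 CPM in wild-type macrophages (log2 fold change 0.67, SE 0.33, edgeR adjusted p = 0.181). Both had no overlap and a wide error. Mcm7 passed without wild-type replicate 2 (log2 fold change 1.22, edgeR adjusted p = 0.023), and Tk1 without Cd163-/- replicate 2 (1.07, edgeR adjusted p = 0.0433). Rrm2 had 26.9 and 14.3 CPM in Cd163-/- macrophages, against 11.2 and 15.3 CPM in wild-type macrophages, where wild-type replicate 2 lay inside the Cd163-/- range (log2 fold change 0.64, SE 0.33, edgeR adjusted p = 0.196).

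The remaining macrophage genes were all uncalled. Of the other MCM ring genes, Mcm2, Mcm3 and Mcm4 had log2 fold changes of 0.43, 0.20 and 0.26 with overlap. The helicase activators Gins1, Cdc45, Mcm10 and Gins2 had 0.82, 0.46, 0.39 and 0.34, and Gins1 and Cdc45 had no overlap. The polymerase genes Pole, Pold1, Pola1, Pold2 and Prim1 had 0.61, 0.44, 0.41, 0.07 and -0.03. Pcna was again the most abundant per length, at 85.4 CPM per kb in Cd163-/- macrophages and 68.5 in wild-type macrophages, with 213 and 197 CPM in Cd163-/- macrophages, against 168 and 160.2 CPM in wild-type macrophages (log2 fold change 0.32, SE 0.12, edgeR adjusted p = 0.101). The loader subunits spread from Rfc5 at 0.54 to Rfc3 at -0.17, and the RPA subunits from 0.43 (Rpa3) to -0.14 (Rpa2). E2f1 had 30.1 and 27.1 CPM in Cd163-/- macrophages, against 31.04 and 33.5 CPM in wild-type macrophages (log2 fold change -0.17, SE 0.13, edgeR adjusted p = 0.354), and Ccne1 had 9.90 and 4.49 CPM in Cd163-/- macrophages, against 4.87 and 9.78 CPM in wild-type macrophages, with replicates of either genotype far apart. Orc1, Orc6, Cdc6, Fen1, Dut, Tyms, Chaf1a, Chaf1b, Uhrf1 and Ccne2 ran from -0.06 (Tyms) to 0.58 (Dut).

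**Figure D5:**
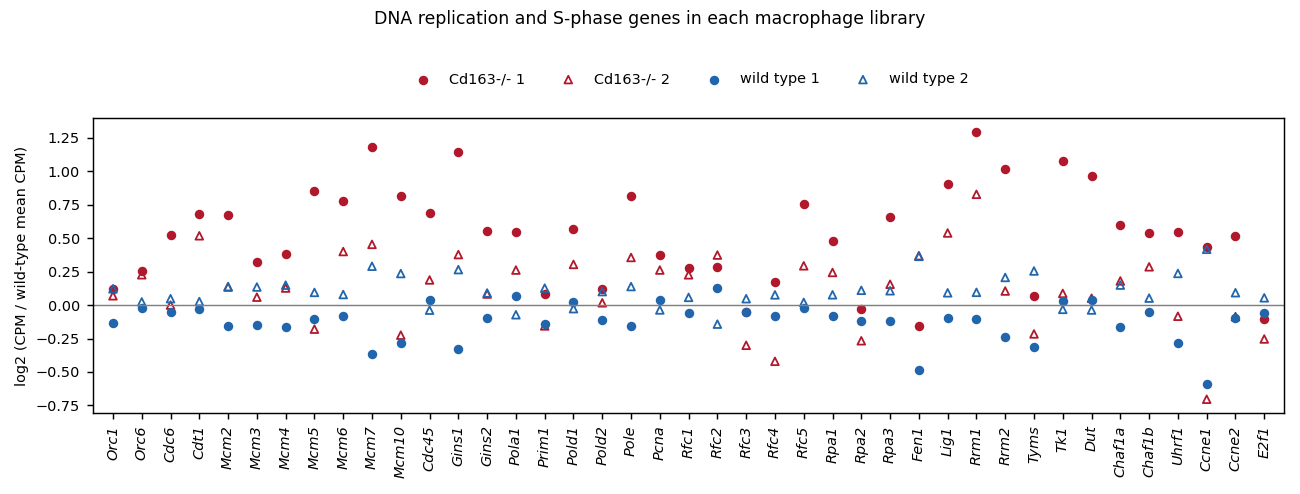
Level of each replication gene in the 4 macrophage libraries as log2 of CPM over the wild-type mean CPM; red marks are Cd163-/- and blue marks wild type, filled circles replicate 1 and open triangles replicate 2. Red circles lie above red triangles in 39 of 41 genes, a count not made over all tested genes, and both red marks lie above both blue marks in 21.

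Around the replication genes, the macrophage lists were mixed in direction. Of 41 other replication genes 3 rose and 4 fell, with a median log2 fold change of 0.12. Over all tested macrophage genes, 13.1% were called higher and 13.3% lower, so neither count was above the share of the table. Dnmt1 rose, with 95.7 and 97.001 CPM in Cd163-/- macrophages, against 56.1 and 66.98 CPM in wild-type macrophages (log2 fold change 0.65, SE 0.13, edgeR adjusted p = 0.0179). Gmnn and Pola2 were chosen for mention after their values were seen. Gmnn, geminin, which binds and blocks CDT1, had 16.02 and 12.2 CPM in Cd163-/- macrophages, against 6.59 and 6.29 CPM in wild-type macrophages (log2 fold change 1.13, SE 0.20, edgeR adjusted p = 0.0131), so that Cdt1 and its inhibitor were both called higher. Pola2, the B subunit of polymerase alpha, had 14.8 and 17.8 CPM in Cd163-/- macrophages, against 46.7 and 43.4 CPM in wild-type macrophages and fell (log2 fold change -1.47, SE 0.15, edgeR adjusted p = 0.00232), while its partner Pola1 had a log2 fold change of 0.41 and was not called. The Pola2 call held under each setting tried and without any single library. That of Gmnn was lost without Cd163-/- replicate 1 (edgeR adjusted p = 0.0926), and that of Dnmt1 without either Cd163-/- library (0.109 and 0.0983).

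Of 26 E2F, RB and G1 regulators 8 rose and 3 fell, with a median log2 fold change of 0.13. For this list and the mitosis list, the shares over all tested macrophage genes were 13.1% higher and 13.3% lower. Rb1 rose, with 65.3 and 70.9 CPM in Cd163-/- macrophages, against 48.4 and 46.6 CPM in wild-type macrophages (log2 fold change 0.52, SE 0.11, edgeR adjusted p = 0.0222), a call lost without either Cd163-/- library or without wild-type replicate 2 (edgeR adjusted p = 0.103, 0.134 and 0.0581). Tfdp2 rose as well (log2 fold change 1.35, SE 0.15, edgeR adjusted p = 0.00373), as it had in IL-10 hearts. Ccna2 and Ccnd1 were not called, with log2 fold changes of 0.70 in both (edgeR adjusted p = 0.156 and 0.084). The 30 mitosis genes summed to 443 to 685 CPM in Cd163-/- macrophages, against 491 to 552 CPM in wild-type macrophages. Of 30 mitosis genes, 2 rose (Kif23 and Anln) and 1 fell, with a median of 0.66. Both rises were lost without Cd163-/- replicate 1 (edgeR adjusted p = 0.132 and 0.211), and that of Anln also without Cd163-/- replicate 2 (0.126) or wild-type replicate 1 (0.0960). The 1 that fell was Mki67, with 88.8 and 64.4 CPM in Cd163-/- macrophages, against 221 and 187 CPM in wild-type macrophages (log2 fold change -1.41, SE 0.19, edgeR adjusted p = 0.00579), a call that held without any single library. Every other mitosis gene had a log2 fold change above 0, Cdk1 among them (0.74, edgeR adjusted p = 0.164).

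Some markers of other cells were called in the macrophage libraries too, where 26.4% of all tested genes were called in either direction. Of fibroblast markers, 3 of 5 tested rose (Col1a1, Col3a1 and Lum) and 1 fell (Pdgfra), with summed levels of 3292 and 2345 CPM in Cd163-/- macrophages, against 1128 and 1637 CPM in wild-type macrophages. Of mesothelial markers, 3 of 5 rose (Upk3b, Wt1 and Lrrn4), with sums of 258 and 213 CPM, against 115 and 80.4 CPM in wild type. In both lists Cd163-/- replicate 1 was the highest library, as in 39 of the 41 replication genes within its pair. Both tested neutrophil markers of 6 fell, with sums of 2.28 to 2.99 CPM in Cd163-/- and 9.26 to 21.8 CPM in wild-type cells. Of macrophage markers, 1 of 7 rose (C1qa) and 1 fell (Adgre1). No erythroid or lymphocyte marker was high enough to test, and Slc4a1 had 0 counts in all 4 libraries. The part of these cells in the replication genes was not tested.

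Set side by side, 3 of the 40 genes tested in both tables fell in IL-10 hearts and rose in Cd163-/- macrophages: Mcm6, Rrm1 and Lig1. Of all 12375 genes tested in both, 146 (1.18%) did so. Another 11 fell in hearts and were not called in macrophages (4.61% of all genes), 1 (Cdt1) was called in macrophages alone, where 10.7% of all genes rose without a heart call, and 25 were called in neither (64.8% of all genes). The genes were chosen with these results known, so nothing is read from the difference between those shares. Fen1 was tested in macrophages alone and not called there. The heart and macrophage tables were scaled separately and share no sample, and the comparisons ask different questions, so no test was made between them. Within its own table, per length, Mcm6 stood at 14.97 CPM per kb in Cd163-/- macrophages and 9.87 in wild-type macrophages. In the hearts, on that table's own scale, it stood at 2.10 CPM per kb in IL-10 hearts and 4.55 in saline hearts.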

How the data were processed

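Poly(A) RNA of 6 heart and 4 macrophage samples was made into libraries with a NEBNext Ultra kit that leaves strand unmarked, per the labels' protocols, which name livers as the RNA source. Per the submitters' processing notes, the authors aligned reads with HISAT2 (version 2.2.1) and made the deposited counts with featureCounts (version not given in the sources used here). The notes list both GRCm39 and mm10, and which of them the counts used is not stated. Gene names (52081 of 55357 identifiers), lengths and coordinates are from GENCODE M21 on GRCm38. The deposited counts were whole numbers, and 0 columns lacked a sample.

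The tables were fitted separately (R 4.3.3, edgeR 4.0.16). filterByExpr, with a minimum count of 10 and a minimum total of 15, left 13718 in hearts and 13861 in macrophages. Libraries were scaled by TMM and groups compared by edgeR's quasi-likelihood test with Benjamini-Hochberg adjustment over the tested genes of a table and calls at 0.05. SE is the absolute log2 fold change over the root of F. CPM are on TMM-scaled library sizes. Replicates differed by more than counting noise. Deviations of same-numbered hearts correlated at -0.209, 0.0551 and -0.0057, against -0.143 to 0.166 for differently numbered hearts. In macrophages the value was -0.133. With 2 libraries a group the deviations mirror each other, so that value cannot show whether the libraries pair.

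The 41 genes, their 10 roles and the comparison lists were chosen with earlier results of these data known. Every S-phase gene is accounted for. A further marker gene, left out of the lists, is not reported here. Values per library are given for the 2 smallest heart p-values of each role, for genes not called in hearts and for genes called in macrophages, and for up to 4 genes of each comparison list with the smallest heart p-values the fold change is given. Mki67, Ccna2, Ccnd1, Cdk1 and Rb1 are given in any case. Markers named by their call, and Cenpf and Kif23, were chosen after their values were seen. Exon bases of 15 of the 41 genes are shared with another annotated gene, and 5 have a pseudogene transcript of at least 95% identity over 200 bases, with at most 14 counts over the hearts and 28 over the macrophages. The alternatives tried were other scalings (DESeq2 size factors, upper quartile, or library size alone), other filters (none, or 1 CPM), other tests (DESeq2 1.42.0 Wald, limma 3.58.1 voom), the replicate block, leaving out mitochondrial genes and leaving out each library. A crossed block was added after the data were seen. Scripts were tested on simulated data. The low-count limits in CPM cover counting error only, while SE and p-values also cover the spread among libraries.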

Additional observations from a re-analysis of the deposited data

How the results depend on the processing

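The heart count of 14 replication genes called lower was 12 to 15 under the settings that kept all hearts, 9 to 17 with a heart left out, and the count called higher was 0 in all of them. Over all tested genes, lower calls ran from 751 to 1120 under the settings that kept all hearts. They ran from 447 to 1012 with a heart left out. By edgeR without the adjustment, 23 of the 40 genes had p under 0.05, against 28.3% of all tested genes. The macrophage count of 4 genes called higher was 9 with library size alone, 8 with no filter, 6 with upper-quartile scaling and 5 with the DESeq2 Wald test. The count called lower was 0 in all of them. Over all tested genes, higher calls were 1817 of 13861 in the main fit and 2665 of 13861 with library size alone. They were 2680 of 24809 with no filter, 2310 of 13861 with upper-quartile scaling and 1662 of 24809 by the Wald test. Of the 41 genes 10 had p under 0.05 without the adjustment in macrophages, a share below the 41.2% of all tested genes. In the labels, same-numbered samples share only a number. With the replicate block, 12 genes were called lower in hearts, without Mcm2 and Mcm4. In macrophages that block left 1 gene called higher (Rrm1), where crossed numbers gave 6. The Wald test did not call Mcm2 in hearts (adjusted p = 0.0787, DESeq2).

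Some uncalled genes turned their sign, and the cause was not tested. In hearts, Orc6 was -0.047 with upper-quartile scaling, -0.057 with library size alone and -0.00050 with the 1 CPM filter. Pola1 was -0.012 with library size alone, and Rfc4 was -0.012 and -0.027 with those scalings. Rfc1 was 0.0012 with DESeq2 size factors and 0.0056 by the Wald test, Rpa1 0.00060 by the Wald test, and Rpa3 0.035 with limma-voom and 0.011 with the replicate block. In macrophages with upper-quartile scaling, Prim1 was 0.084, Rfc4 0.025, Tyms 0.052 and Ccne1 0.100. With library size alone, Prim1 was 0.15, Rfc3 0.0077, Rfc4 0.091, Rpa2 0.038, Tyms 0.12, Ccne1 0.17 and E2f1 0.0031. With a heart left out, the ranges were -0.14 to 0.092 for Orc6, -0.040 to 0.17 for Pola1, -0.085 to 0.099 for Rfc1, -0.081 to 0.13 for Rfc4, -0.063 to 0.053 for Rpa1 and -0.16 to 0.29 for Rpa3. With a macrophage library left out, they were -0.027 to 0.22 for Orc1, -0.18 to 0.84 for Mcm5, -0.22 to 0.80 for Mcm10, -0.16 to 0.10 for Prim1, -0.032 to 0.17 for Pold2, -0.42 to 0.16 for Rfc4, -0.24 to 0.61 for Fen1, -0.32 to 0.24 for Tyms, -0.081 to 0.54 for Uhrf1, -0.70 to 0.57 for Ccne1 and -0.084 to 0.51 for Ccne2. In saline hearts 17 genes averaged under 5 CPM, so depth limits what their tests can show, and 2 libraries a genotype limit the macrophage values.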
